A study of Mus musculus with 3 samples.

Results

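The genes described here are 10 regulators of the spindle checkpoint and of the anaphase promoting complex (APC/C), chosen by gene symbol and measured by RNA sequencing in RAW 264.7 cells, a mouse macrophage line from an Abelson leukemia virus-induced tumor. They are Ttk, Bub1, Bub1b, Bub3, Mad2l1, Cdc20, Fzr1, Ube2c, Pttg1 and Espl1, and all 10 were found among the 46078 genes of the deposited table. The study has 3 libraries, 1 for each condition, all from cells of this line grown in medium with 10% serum and taken after 12 hours. The conditions were 0.5 mM hydroxyurea (HU) with gold nanocages given at the same time, 0.5 mM HU without nanocages, and untreated control cells. The series' design text describes the nanocages as tested for rescue of cells damaged by HU. Their dose is not given in the sources used here, and nanocages without HU were not analysed here.

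The spindle checkpoint holds cells in metaphase until every chromosome is attached to the spindle. Unattached kinetochores recruit the kinases TTK and BUB1, which help assemble an inhibitor made of MAD2, BUBR1, BUB3 and CDC20, the mitotic checkpoint complex. Once it is released, CDC20 activates the ubiquitin ligase APC/C, which marks securin and cyclin B for destruction and so frees separase to cut cohesin. In a dividing macrophage line most of these genes are transcribed late in the cell cycle, whereas HU, an inhibitor of ribonucleotide reductase, stalls cells in S phase.

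With HU, 9 of the 10 genes were below control by more than counting error, 6 of them by 1.5-fold or more, beside 20.1% and 3.12% of all measured genes. Cdc20 was lowest relative to control, at 2.02-fold lower, and Mad2l1 did not differ from control beyond counting error. With nanocages added to HU, 8 of the 10 did not differ from HU alone beyond counting error, 1 was above it and 1 below. These counts stand near the 8.35% and 7.78% of all measured genes. None was 1.5-fold apart, beside 1.32% of all measured genes lower and 1.36% higher. Each condition is 1 library, so no difference given here has a replicate check, and every interval covers counting error only. The genes and lists were chosen with earlier results of these data known, so counts set beside shares of all genes are descriptions and not tests. In bulk RNA, fewer cells in a phase of the cell cycle and less RNA per cell cannot be told apart.

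Promoter sequences of 5 of the genes are shown because a short element known from late cell cycle promoters stands near the start of several of them. The 6-base cell cycle genes homology region (CHR, letters TTTGAA, either strand) is known in mouse and human as an element bound by the MuvB core of the DREAM and MMB complexes, and the CCAAT box (letters CCAAT, either strand) as the site of NF-Y. RefSeq promoter windows on GRCm38.p6, the assembly that mm10 stands for, run from 250 bases before a gene's start to 50 after it and were found for all 10 genes, with a pair of windows for Bub3. The CHR letters stood in windows of 6 of the 10 genes, beside 17.9% of all 32851 windows. Here and below a gene counts when any of its windows matches, whereas the share is over single windows. CCAAT stood in windows of 8 of them, beside 37.4% of all windows, and the CHR letters and CCAAT together in windows of 6, beside 6.95%. The bases from 130 to 2 before the RefSeq start follow, 5′ to 3′ on the strand of the gene, with CHR and CCAAT matches in capitals. The last 30 of them in Ube2c, 26 in Espl1 and 8 in Cdc20 lie inside the longer gene model of GENCODE M21. For Mad2l1 the GENCODE model starts later, at base 66535390 of chromosome 6. The RefSeq window of Mad2l1 ends before that start, so the bases next to it were not searched.
Cdc20, chr4:118437345-118437473, minus strand: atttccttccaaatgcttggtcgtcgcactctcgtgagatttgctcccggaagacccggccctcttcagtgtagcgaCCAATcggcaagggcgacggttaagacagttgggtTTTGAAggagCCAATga
Ube2c, chr2:164769799-164769927, plus strand: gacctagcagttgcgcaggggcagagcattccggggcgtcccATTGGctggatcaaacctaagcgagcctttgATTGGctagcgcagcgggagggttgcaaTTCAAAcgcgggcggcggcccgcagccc
Espl1, chr15:102296163-102296291, plus strand: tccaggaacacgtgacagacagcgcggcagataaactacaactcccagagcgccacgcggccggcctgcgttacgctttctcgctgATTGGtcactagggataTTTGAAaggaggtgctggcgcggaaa
Ttk, chr9:83834559-83834687, plus strand: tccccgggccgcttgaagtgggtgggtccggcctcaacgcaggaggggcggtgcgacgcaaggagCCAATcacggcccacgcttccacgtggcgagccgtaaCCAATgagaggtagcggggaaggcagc
Mad2l1, chr6:66535091-66535219, plus strand: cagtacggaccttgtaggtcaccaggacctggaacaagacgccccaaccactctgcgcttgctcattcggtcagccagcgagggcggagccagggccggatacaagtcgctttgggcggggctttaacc

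The CHR letters began 18 bases before the start in Cdc20, 27 before it in Espl1 and 29 before it in Ube2c. In Bub3 they began 43 bases before the start in the first window and 167 before it in the second. The CCAAT matches of Bub3 stood 74 and 32 bases before the first start and 198 and 156 before the second. All are shifted alike, so the Bub3 windows appear to hold 1 CHR site measured from different starts. In Ttk the CHR letters began at base 8 after the start and in Bub1b at base 41, outside the bases printed. Within the 250 upstream bases alone, 4 of the 10 genes held them, beside 16.0% of all windows. The variant TTCGAA, which reads the same on both strands, stood in windows of Bub1 and Bub1b, beside 1.56% of all windows. Bub3 held the CHR letters and was 1.10-fold lower with HU. Fzr1, Pttg1 and Bub1 were lower with HU and had no TTTGAA on either strand of their windows, though Bub1 held the variant. Whether the matches bear on the RNA values was not tested. The windows of Mad2l1 and Pttg1 held neither CHR letters nor CCAAT, and that of Mad2l1 does not reach its GENCODE start. A match is a description of these letters and not a measured binding site.

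**Figure D1:**
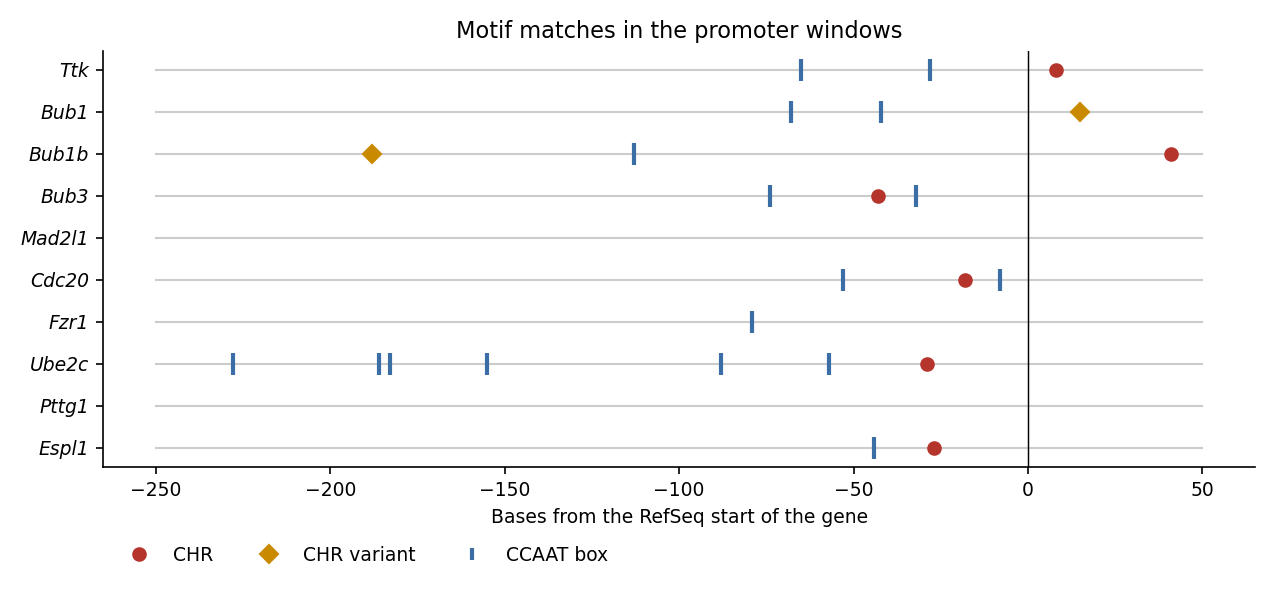
Positions of motif matches in the RefSeq promoter window of each gene, in bases from the RefSeq start (first window for Bub3). Circles mark the CHR, diamonds its variant and bars the CCAAT box. The CHR matches of Cdc20, Espl1, Ube2c and Bub3 (first window) lie 18 to 43 bases before the start, and Mad2l1 and Pttg1 have no match.

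The summed counts were 18644333 in HU plus gold nanocages, 20057329 in HU and 14990564 in control, and 3.38%, 3.26% and 3.07% of them came from mitochondrially encoded genes in the same order. All 7 macrophage markers checked (among them Lyz2, Cd68 and Csf1r) had a mean of at least 1 FPKM, Adgre1 being the lowest, with sums of 2787.99 FPKM in HU plus gold nanocages, 2916.64 in HU and 3040.17 in control. Of 15 markers of T cells, B cells, fibroblasts, epithelia and granulocytes, 11 had no read in any library, and the 15 summed to between 0.24 and 0.34 FPKM in each library. FPKM is fragments per kilobase of exonic gene length, scaled to the summed count of the library, and levels are compared between genes only in this unit. Ratios between libraries are ratios of counts scaled to the summed count (CPM), and a gene counts as above or below counting error when 1 lies outside its exact 95% interval.

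The first comparison, HU against control, addressed the effect of the drug, and the 10 genes are described by role, starting with the checkpoint kinases. Ttk, which encodes the MPS1 kinase that starts checkpoint signalling at kinetochores, stood at 7.8 FPKM in HU plus gold nanocages, 7.8 in HU and 13.0 in control. The ratio of HU to control was 0.604 (95% counting interval 0.549 to 0.665), or 1.65-fold lower, from 773 reads in HU and 956 in control. It was the least abundant of the 10 genes per length in each library. Bub1, a kinase that phosphorylates centromeric histone H2A and recruits other checkpoint proteins, stood at 36.2, 33.6 and 41.2 FPKM in the same order of libraries. Bub1 was 1.23-fold lower in HU than in control (1.16 to 1.29), a smaller difference than that of Ttk, with intervals that do not overlap.

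The proteins of the mitotic checkpoint complex were unequal in their RNA. Bub1b, which encodes BUBR1, stood at 47.5 FPKM in HU plus gold nanocages, 48.8 in HU and 80.5 in control, and was 1.65-fold lower in HU than in control (1.58 to 1.72). Bub3, the WD-repeat partner of BUB1 and BUBR1, stood at 97.7, 103.3 and 113.6 FPKM in the same order. It was 1.10-fold lower in HU (1.05 to 1.15). Mad2l1, which encodes MAD2, the protein whose closed form binds CDC20, stood at 46.2, 44.2 and 43.8 FPKM, and its HU to control ratio was 1.01 (0.944 to 1.08). Among these 3 genes only Bub1b was thus 1.5-fold apart from control.

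Both activators of APC/C were lower with HU. Cdc20, the activator of APC/C in metaphase and the target of the checkpoint, stood at 54.1 FPKM in HU plus gold nanocages, 54.9 in HU and 110.9 in control. It was 2.02-fold lower in HU than in control (1.91 to 2.14), from 2058 reads in HU and 3105 in control, and 1.03% of the 10849 genes with a mean of at least 1 FPKM had a lower ratio. Fzr1, which encodes CDH1, the activator that takes over from CDC20 late in mitosis and acts through G1, stood at 18.0, 18.9 and 28.9 FPKM. It was 1.53-fold lower in HU (1.43 to 1.63), just past the 1.5-fold limit.

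Ube2c, separase and securin, which act at the exit from metaphase, were lower as well. Ube2c, the ubiquitin-conjugating enzyme that places the first ubiquitin on APC/C substrates, stood at 42.0 FPKM in HU plus gold nanocages, 40.8 in HU and 74.8 in control, and was 1.83-fold lower in HU than in control (1.73 to 1.94). Espl1, which encodes separase, the protease that cuts cohesin, stood at 16.2, 17.1 and 31.2 FPKM in the same order and was 1.82-fold lower in HU (1.73 to 1.93). Pttg1, which encodes securin, the inhibitor and chaperone of separase, stood at 19.9, 19.4 and 28.5 FPKM. It was 1.47-fold lower in HU (1.33 to 1.62), just short of the 1.5-fold limit.

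**Figure D2:**
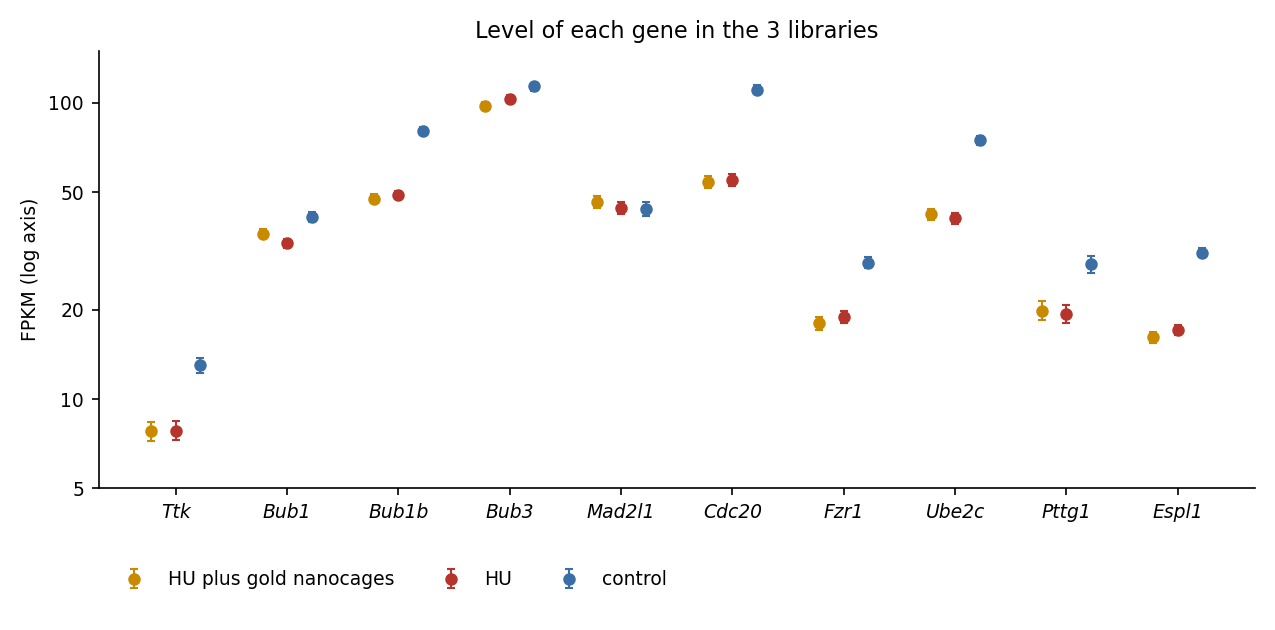
FPKM of each of the 10 genes (log axis) in the HU plus gold nanocages, HU and control libraries, 1 library each, with exact 95% Poisson intervals of the read count as bars. For Cdc20 the HU plus gold nanocages and HU values of 54.1 and 54.9 FPKM lie together, below 110.9 FPKM in control, while the 3 values of Mad2l1 lie between 43.8 and 46.2 FPKM.

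As a group, 9 of the 10 genes were below counting error in HU against control, beside 20.1% of the 10849 genes, and none was above it, beside 18.7%. The 6 genes at least 1.5-fold lower (Cdc20, Ube2c, Espl1, Ttk, Bub1b and Fzr1) stand beside 3.12% of all genes, and none was 1.5-fold higher, beside 4.53%. The median log2 ratio of the 10 genes was -0.67, against -0.01 over all 10849 genes. The 10 genes together took 0.115% of the counts in HU and 0.171% in control. Their folds covered a range from 0.495 for Cdc20 to 1.01 for Mad2l1, so they did not share a single ratio.

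**Figure D3:**
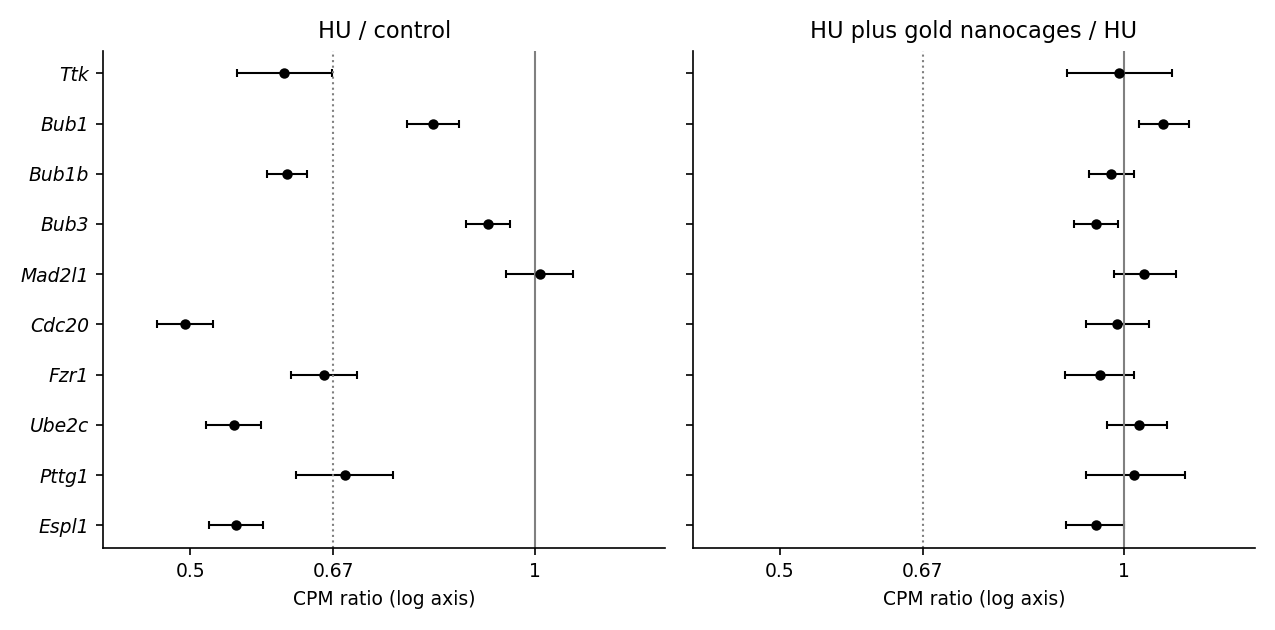
CPM ratios (log axis) of the 10 genes for HU over control and for HU plus gold nanocages over HU, with exact 95% counting intervals as bars. The solid line marks 1 and the dotted line 1.5-fold lower. In HU over control 6 points lie left of the dotted line, and in HU plus gold nanocages over HU all points lie between 0.944 and 1.08.

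**Figure D4:**
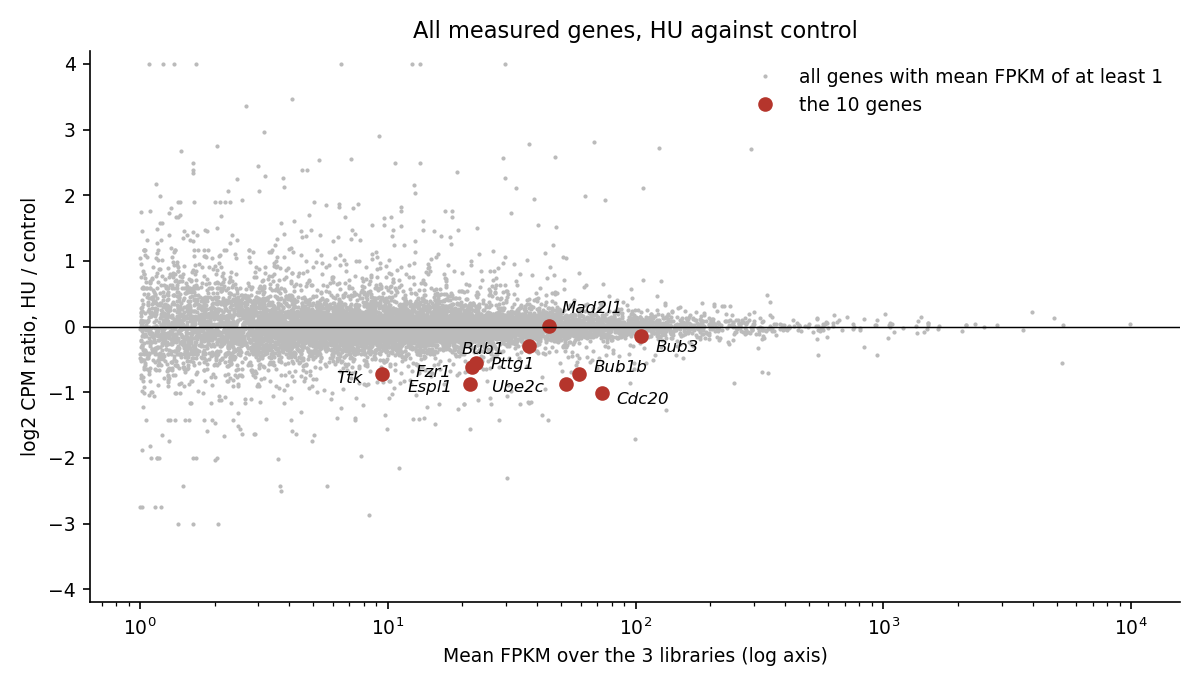
The log2 CPM ratio of HU over control against mean FPKM (log axis) for the 10849 genes with a mean of at least 1 FPKM, with values above 4 drawn at 4 and genes without reads in either HU or control not drawn. The 10 genes are marked, and all but Mad2l1 lie below 0, down to -1.01 for Cdc20.

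HU plus gold nanocages against HU asked what the nanocages add. Of the 10 genes, 1 was above counting error, beside 8.35% of all genes, and 1 below, beside 7.78%, so the counts stand near the background of the contrast. Bub1 was 1.08-fold higher with nanocages (1.03 to 1.14), at 36.2 FPKM in HU plus gold nanocages and 33.6 in HU. Bub3 was 1.06-fold lower (1.01 to 1.11), at 97.7 and 103.3 FPKM in the same order. Espl1 had a ratio of 0.944, and its interval of 0.889 to 1.00 only just included 1; with DESeq2 size factors it lay below counting error, which made the count below 2. Cdc20 had a ratio of 0.985 (0.925 to 1.05), Ube2c 1.03 (0.966 to 1.09) and Ttk 0.990 (0.892 to 1.10). None was 1.5-fold apart in either direction, beside 1.32% of all genes lower and 1.36% higher, and the median log2 ratio was -0.02, against 0.00 over all genes.

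HU plus gold nanocages against control shares a library with each of the other contrasts, so its values are given beside theirs and not as a separate result. Cdc20 was 2.05-fold lower than control with nanocages (1.94 to 2.17), Espl1 1.93-fold (1.83 to 2.04) and Ube2c 1.78-fold (1.68 to 1.89). Bub1, at 1.14-fold lower (1.08 to 1.20), was the gene whose nanocage value lay furthest above HU alone, and it was still below control. Mad2l1 again did not differ from control beyond counting error, at a ratio of 1.06 (0.985 to 1.13). In this contrast 9 of the 10 genes lay below counting error, beside 20.1% of all genes, and none above it, beside 19.6%. At least 1.5-fold lower were 6 of them, beside 3.24% of all genes, and none was 1.5-fold higher, beside 5.28%.

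The RNA levels of partner genes relative to each other, per length, differed between the HU libraries and control. Each ratio rests on the deposited exonic sizes of its genes, so whether it lies above or below 1 depends on them. These sizes are the same in every library. Cdc20 to Mad2l1, the target and its inhibitor, had an FPKM ratio of 1.17 in HU plus gold nanocages (95% counting interval 1.10 to 1.25), 1.24 in HU (1.17 to 1.32) and 2.53 in control (2.38 to 2.70). Cdc20 to Fzr1, the early and the late activator, had a ratio of 3.01 in HU plus gold nanocages (2.81 to 3.22), 2.91 in HU (2.73 to 3.11) and 3.84 in control (3.63 to 4.07). Both ratios were lower in the HU libraries than in control, with intervals apart from it. Pttg1 to Espl1, securin to separase, went the other way, at 1.23 in HU plus gold nanocages (1.13 to 1.34), 1.13 in HU (1.04 to 1.23) and 0.912 in control (0.845 to 0.984). Bub1b to Bub1 had a ratio of 1.31 in HU plus gold nanocages (1.25 to 1.38), 1.45 in HU (1.39 to 1.53) and 1.95 in control (1.86 to 2.05). Ube2c to Ube2s, the enzyme that starts ubiquitin chains to the enzyme that extends them, had a ratio of 0.277 in HU plus gold nanocages (0.261 to 0.294), 0.260 in HU (0.246 to 0.276) and 0.404 in control (0.382 to 0.426).

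Further spindle checkpoint genes had a median near 0. Of 12 listed, 11 had a mean of at least 1 FPKM, and in HU against control 3 were below counting error and none above, to be read beside the 20.1% and 18.7% of all genes, with a median log2 ratio of -0.04. Of the 11, 2 were at least 1.5-fold lower, beside 3.12% of all genes, and none was 1.5-fold higher, beside 4.53%. Spdl1, which encodes the dynein adaptor Spindly, was 1.64-fold lower (ratio 0.610, 0.549 to 0.678), and Knl1 (listed under its older symbol Casc5), the kinetochore scaffold that docks BUB1 and BUB3, had a ratio of 0.628 (0.582 to 0.679). Zw10, a subunit of the kinetochore RZZ complex, had a ratio of 0.847 (0.804 to 0.891). Trip13, the ATPase that takes MAD2 complexes apart, had one of 0.933 (0.862 to 1.01), within counting error. With nanocages against HU, 2 of the 11 were above counting error and 1 below, beside 8.35% and 7.78% of all genes. In this contrast Mad2l2, a relative of MAD2 with roles in translesion synthesis, was 1.21-fold higher (1.03 to 1.42) from 330 reads in HU plus gold nanocages and 293 in HU. Mad2l1bp, which encodes the MAD2 inhibitor p31comet, had a ratio of 0.931 (0.777 to 1.11). Usp44 had no reads in HU plus gold nanocages or HU and 1 in control.

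The subunits of APC/C itself differed little from control. Of 14 subunit genes, all measured, 4 were below and 3 above counting error in HU against control, beside 20.1% and 18.7% of all genes, so both counts stand near the background. None was 1.5-fold apart, beside 3.12% of all genes lower and 4.53% higher, and the median log2 ratio was -0.04. Cdc27, a TPR-repeat subunit that contacts the activators, was lowest at a ratio of 0.746 (0.702 to 0.793). Anapc15, a subunit needed for release of the checkpoint complex, had a ratio of 1.23 (1.09 to 1.40) and Anapc16 one of 1.15 (1.03 to 1.29), both above counting error. Cdc26, a small structural subunit, had a ratio of 0.882 (0.788 to 0.988). With nanocages against HU all 14 were within counting error, Cdc26 at 1.11 (0.999 to 1.24) and Anapc11 at 0.923 (0.841 to 1.01) included. Of all genes, only 8.35% were above counting error in that contrast and 7.78% below.

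Among 6 other enzymes, cofactors and inhibitors of APC/C, 4 were below counting error with HU and none above, beside 20.1% and 18.7% of all genes, with a median log2 ratio of -0.17. Cks2, a small CDK-binding protein that aids phosphorylation of APC/C, was at 23.9 FPKM in HU and 54.4 in control, a ratio of 0.440 (0.383 to 0.505). Its paralog Cks1b had a ratio of 0.882 (0.836 to 0.931), and Ube2s had one of 0.846 (0.800 to 0.894), a smaller difference than that of its partner Ube2c. Ube2d1, a conjugating enzyme used by many ubiquitin ligases, had a ratio of 1.14 (0.979 to 1.33). With nanocages against HU all 6 were within counting error, among them Ube2d1 at 1.11 (0.973 to 1.27) and Cks1b at 0.958 (0.908 to 1.01). This is to be read beside the 8.35% of all genes above counting error and the 7.78% below.

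Most APC/C substrates were lower with HU. Of 15, 11 were below counting error, beside 20.1% of all genes, and 8 were at least 1.5-fold lower, beside 3.12%, with a median log2 ratio of -0.68. The list, like the others, was chosen with earlier results of these data known, so these counts describe it and test nothing. The 3 above counting error stand near the 18.7% of all genes. Plk1, a kinase that acts throughout mitosis, had the lowest ratio at 0.202 (0.184 to 0.221), followed by Aurka, a spindle pole kinase, at 0.395 (0.370 to 0.421). Anln, the cytokinesis scaffold anillin, had a ratio of 0.446 (0.426 to 0.468) and Ccnb1, cyclin B1, one of 0.452 (0.429 to 0.477). The 3 above counting error were Cdc25a at 1.31 (1.23 to 1.40), Skp2 at 1.09 (1.01 to 1.16) and the licensing inhibitor Gmnn at 1.09 with a lower bound that rounds to 1.00, looked up after their values were seen. Cdc25a and Skp2 are known as regulators of entry into and passage through S phase, and whether these roles bear on their ratios was not tested. In HU against control Tk1 was the 1 substrate within counting error, at 1.03 (0.980 to 1.09). Ccna2 was among the 11 below it, at 0.715 (0.676 to 0.756). With nanocages against HU, Gmnn was 1.09-fold higher (1.01 to 1.18) and Tk1, thymidine kinase, had a ratio of 0.950 (0.903 to 0.999). The other 13 were within counting error, where 8.35% of all genes were above it and 7.78% below.

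Genes of cohesin, the ring that separase cuts, and of its regulators were lower with HU or within counting error, and the shugoshins that protect it had the lowest ratios. Of 15 listed genes 14 were found and measured, and 7 were below counting error with HU, beside 20.1% of all genes, and none above, beside 18.7%, with a median log2 ratio of -0.10. Sgo2a, listed as Sgol2a, had a ratio of 0.362 (0.301 to 0.435), from 177 reads in HU and 365 in control, and Sgo1, listed as Sgol1, one of 0.464 (0.403 to 0.534). Rad21, the subunit that separase cleaves, had a ratio of 0.778 (0.748 to 0.809), and Cdca5, which encodes sororin, one of 0.883 (0.796 to 0.979). With nanocages against HU 5 of the 14 were above counting error and none below, beside the 8.35% and 7.78% given above, led by Esco2, which encodes an acetyltransferase of the cohesin subunit SMC3, at 1.14 (1.05 to 1.25) and Smc3 at 1.09 (1.03 to 1.14). Against control the Esco2 ratio with nanocages was 1.23 (1.12 to 1.36).

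**Figure D5:**
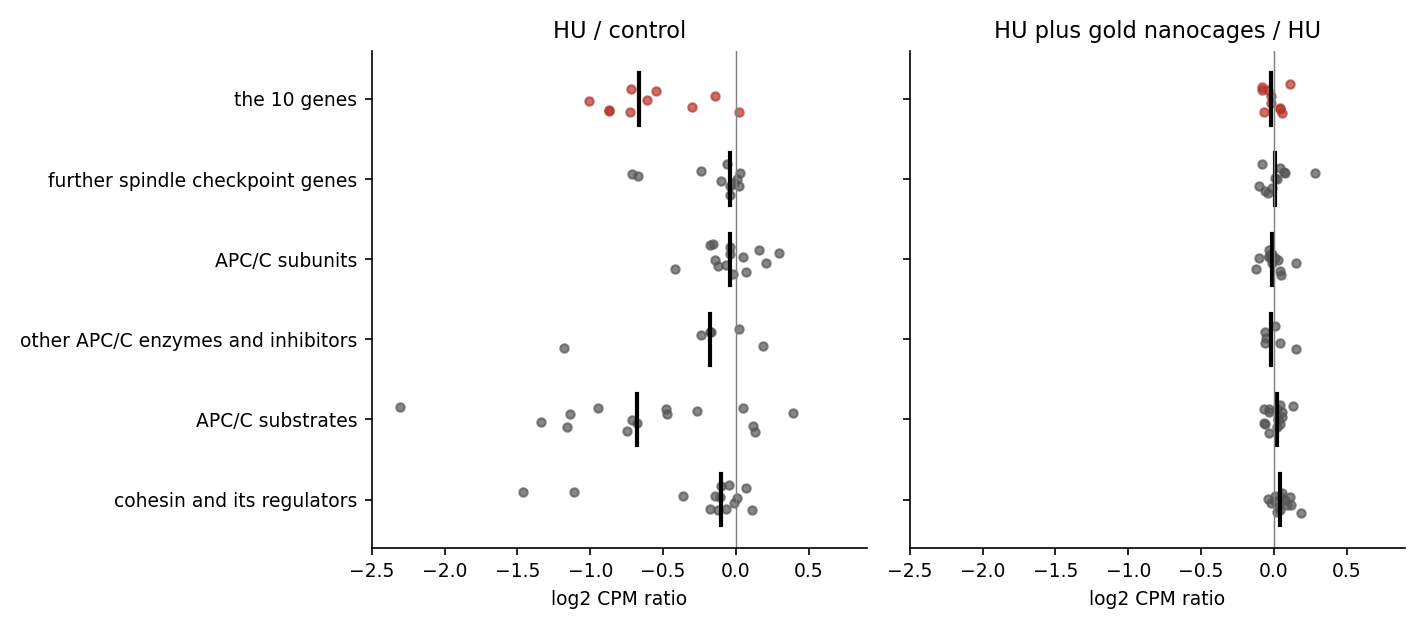
The log2 CPM ratio of each gene with a mean of at least 1 FPKM, for HU over control and HU plus gold nanocages over HU, by group, with the group's median as a bar. In HU over control the 10 genes and the APC/C substrates have medians of -0.67 and -0.68, and the APC/C subunits one of -0.04.

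In the deposited annotation 8 of the 10 genes carry the GO term cell division, all but Ttk and Espl1, and 4 carry kinetochore. Some of the 10 overlap other genes in GENCODE M21 on mm10. The end of Cdc20 (chromosome 4, 118432901 to 118437352) overlaps Elovl1 on the other strand by 53 bases, and Elovl1 was 1.14-fold higher with HU (1.09 to 1.20), opposite to Cdc20. Fzr1 (chromosome 10, 81366222 to 81378516) overlaps Mfsd12 by 4 bases. Fgfr2, which overlaps Bub3, and Tnnc2, which overlaps Ube2c, had no reads in any library. The pseudogene Gm49480 within Espl1 was not analysed here. In GENCODE 0 pseudogenes are named after any of the 10 genes. The search was by name only, so pseudogenes under other names would be missed. The effect of these overlaps on the counts was not tested.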

How the data were processed

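The authors deposited 1 table that gives, for each gene and library, a whole-number count of reads without normalization and an FPKM value, fragments per kilobase per the file headers. Each FPKM value equals the count over the gene's exonic size and the library's total to within 0.0051 FPKM, for 100% of genes. The exonic sizes are lengths in bases, an other kind of value, per the file headers. The submitters' processing notes name mm10 as the build and HISAT2 2.0.1, HTSeq 0.6.1, DESeq, cutadapt, SAMtools 0.1.18 and bcl2fastq 2.17.1.14 as tools. Settings, strand and annotation release of the counting are not given in those notes.

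Folds are CPM ratios with exact Clopper-Pearson 95% intervals from the counts of both libraries (scipy 1.17.1). They were run on simulated Poisson counts without variation between libraries. That run checks the computation only, since the intervals assume the same counting error. Reads carry no molecular identifiers, so the intervals cover counting error only. With 1 library per group no test between conditions was made. The background was the 10849 genes with a mean of at least 1 FPKM over the 3 libraries. A gene without reads allows up to 3 counts, which is 0.161 CPM in HU plus gold nanocages, 0.150 in HU and 0.200 in control. Alternatives were edgeR 4.0.16 TMM factors, DESeq2 1.42.0 size factors, pseudocounts and filters on low values. All 10 genes are named. From each of 5 lists the 4 genes with the largest absolute log2 ratios in HU against control are named, and the 2 in HU plus gold nanocages against HU. Named outside this rule were Cdc25a, Skp2, Ccna2 and Usp44, and Gmnn and Tk1 in HU against control. The genes and lists were chosen with earlier results of these data known. Coordinates are from GENCODE M21 (GRCm38, which holds 98.2% of the gene IDs) and promoters from RefSeq on GRCm38.p6.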

Additional observations from a re-analysis of the deposited data

How the results depend on the processing

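All 90 alternative folds of the 10 genes, over the 3 contrasts with TMM factors, DESeq2 size factors or a pseudocount of 1 FPKM, stayed within the counting interval of the value given. Of 42 alternative values for the counts and medians of the 10 genes, 39 stayed close, a count within 1.5 times the count given and a median between the medians of the 10 genes' lower and upper interval bounds. A pseudocount of 5 FPKM brought the median log2 ratio to -0.49 in HU against control and -0.53 in HU plus gold nanocages against control; such a pseudocount pulls ratios of low genes toward 0 by construction. With DESeq2 size factors 2 genes in place of 1 lay below counting error in HU plus gold nanocages against HU, Espl1 being the added gene. All 24 shares of all genes recomputed under other filters on low values lay outside the binomial interval of the share given. The share of all genes at least 1.5-fold lower in HU against control was 12.9% among genes with a read in either library and 1.72% among those with a mean of at least 5 FPKM, against 3.12% as given. TMM factors or DESeq2 size factors moved no contrast by more than 0.005 on the log2 scale. No paired analysis was possible because each group has 1 library, and leaving out a replicate was likewise not possible. Depth limits the least read genes most, Ttk and Pttg1, whose intervals span 0.549 to 0.665 and 0.618 to 0.752 of control in HU.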
